A study of Homo sapiens with 4 samples.

Results

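The transcripts described here are 9 long noncoding RNAs, namely NEAT1 and MALAT1, which stay in the nucleus, and GAS5, SNHG1, SNHG5, SNHG8, SNHG12, SNHG15 and ZFAS1, which are snoRNA host genes. They were taken by symbol from the 28412 genes of the deposited table, and all 9 had a row and passed the filter on low values. Their levels were measured by RNA-seq in 4 libraries of NB4, as the labels name the cells, which is a human line of acute promyelocytic leukemia. The control group, sh-NC, and the knockdown group, sh-LDB1, in which a lentiviral shRNA targets LDB1, have 2 libraries each. All cells had gone through lentiviral infection and puromycin selection, and the sh-NC libraries are the ones whose source label says no treatment. Of the 3 LDB1 shRNAs designed in the study, the one sequenced is not named in the labels. LDB1 is a protein that binds LIM domains, and in blood cells it forms a complex with LMO2 and DNA-binding factors such as TAL1 and GATA1. The comparison asks which transcripts change when LDB1 is depleted.

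NEAT1 is the RNA scaffold of paraspeckles, nuclear bodies built on its long isoform and rich in RNA-binding proteins. MALAT1 lies in nuclear speckles, which store splicing factors, and its gene is a neighbour of NEAT1. The mature 3' end of MALAT1 and that of the long NEAT1 isoform have no poly(A) tail. A snoRNA host gene carries small nucleolar RNAs in its introns. Splicing frees the introns, from which the snoRNAs that guide ribosomal RNA modification are trimmed, while the spliced host RNA reaches the cytoplasm and is often cleared by nonsense-mediated decay when ribosomes translate it. Many snoRNA hosts and ribosomal protein genes start transcription at a cytosine within a run of pyrimidines, the 5' terminal oligopyrimidine (TOP) start, which ties the translation of such RNAs to growth signals.

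Start regions from RefSeq (GRCh38.p14) are shown for the transcripts with an entry, because start features recur among several of the hosts and were not used to choose the transcripts. Each run holds 50 bases before the listed start and 50 bases from it on, 5′ to 3′ on the strand of the gene. Capitals mark the letters TATAA where they lie 45 to 16 bases before the start, and the unbroken pyrimidine run at a start that is a C. MALAT1 has 2 listed starts. The first, nearer to the GENCODE start of the gene, has no TATAA there and is not printed, and the second has it. The windows are chr6:85678684-85678783 (minus strand) for SNHG5, chr1:28581824-28581923 (minus) for SNHG12, chr20:49278592-49278691 (plus) for ZFAS1, chr4:118278712-118278811 (plus) for SNHG8, chr11:62855836-62855935 (minus) for SNHG1, chr1:173868996-173869095 (minus) for GAS5 and chr11:65498995-65499094 (plus) for the second of 2 starts of MALAT1.
SNHG5: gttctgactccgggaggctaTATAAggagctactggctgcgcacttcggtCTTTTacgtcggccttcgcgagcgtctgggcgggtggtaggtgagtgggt
SNHG12: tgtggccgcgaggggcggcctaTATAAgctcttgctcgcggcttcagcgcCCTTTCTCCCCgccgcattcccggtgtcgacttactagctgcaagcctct
ZFAS1: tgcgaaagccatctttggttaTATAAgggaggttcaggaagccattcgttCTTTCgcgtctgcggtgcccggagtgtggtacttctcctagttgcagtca
SNHG8: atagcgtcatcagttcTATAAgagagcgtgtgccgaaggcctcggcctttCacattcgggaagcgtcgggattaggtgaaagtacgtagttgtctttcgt
SNHG1: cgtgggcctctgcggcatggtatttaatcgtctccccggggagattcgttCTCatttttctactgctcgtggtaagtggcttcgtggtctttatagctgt
GAS5: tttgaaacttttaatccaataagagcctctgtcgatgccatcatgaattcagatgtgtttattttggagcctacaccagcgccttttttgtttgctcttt
MALAT1, second start: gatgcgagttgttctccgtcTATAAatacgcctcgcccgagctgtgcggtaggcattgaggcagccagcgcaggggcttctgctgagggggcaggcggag

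A C start followed by at least 4 more pyrimidines stood in 3 of the 6 hosts with an entry, SNHG5, SNHG12 and ZFAS1. The share was 4.07% of all 35116 RefSeq start windows, 59.5% of the windows of cytosolic ribosomal protein genes, and 4 of the 20 windows of other long noncoding snoRNA hosts. TATAA stood in 4 of the 6, at 30 bases before the start in SNHG5, 34 in SNHG8, 28 in SNHG12 and 29 in ZFAS1. The share was 4.09% of all windows, 8.86% of ribosomal protein windows and 23.8% of the windows of protein-coding snoRNA hosts. Of the 20 windows of other long noncoding snoRNA hosts, 2 had it. SNHG1 has only 3 pyrimidines from its listed start, and neither sign stood at the listed start of GAS5, which lies 163 bases before the GENCODE start of that gene. The starts differ in the other hosts too. Counted from the listed start, the GENCODE start lies at -199 bases in SNHG5, -1259 in SNHG12, -464 in ZFAS1, -59 in SNHG8 and -68 in SNHG1, where minus means before it. Of 3 further motifs searched on both strands from 250 bases before to 50 after the start, CACGTG (an E-box) was in none of the 6 and in 7.26% of all windows. AGATAA was in GAS5 alone of the 6 and in 10.3% of all windows, and TGATAA in none and in 7.53%. AGATAA and TGATAA share the letters GATAA, which GATA factors bind, and were counted apart. These motifs were chosen after the sequences had been looked at, and a match of letters is a description of the sequence only.

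The depth of the libraries was 14021141 to 16182989 recovered reads. On the scale of log2(FPKM + 1), the replicates correlated at 0.985 and 0.984 across genes, and libraries of different groups at 0.857 to 0.863; genes are not independent replicates. LDB1 itself had 135.1 and 120.1 FPKM (fragments per kilobase, normalised for sequencing depth) in sh-NC and 10.2 and 9.47 FPKM in sh-LDB1, or 7.73% of the control level. Markers of the labelled cell type were low. The 6 promyelocyte and granulocyte markers with a row summed to 10.4 to 11.1 FPKM in sh-NC and to 37.5 to 40.5 in sh-LDB1, ELANE was listed at 0 in 3 of the 4 libraries, and MPO and CTSG were not analysed here. The 13 erythroid markers summed to 3959 to 4148 FPKM in sh-NC and to 292.7 to 327.0 in sh-LDB1, and all 12 tested fell. Monocyte markers went from sums of 0.246 to 0.262 to sums of 5.70 to 5.73 FPKM, with a rise of ITGAM, while 2 megakaryocyte markers and 1 lymphoid marker were tested and did not pass. The erythroid markers, most granulocyte markers tested and ITGAM thus differ between the same groups that the results below compare. Their part in these results was not tested. In bulk RNA, fewer cells of a type and less RNA per cell cannot be told apart.

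**Figure D1:**
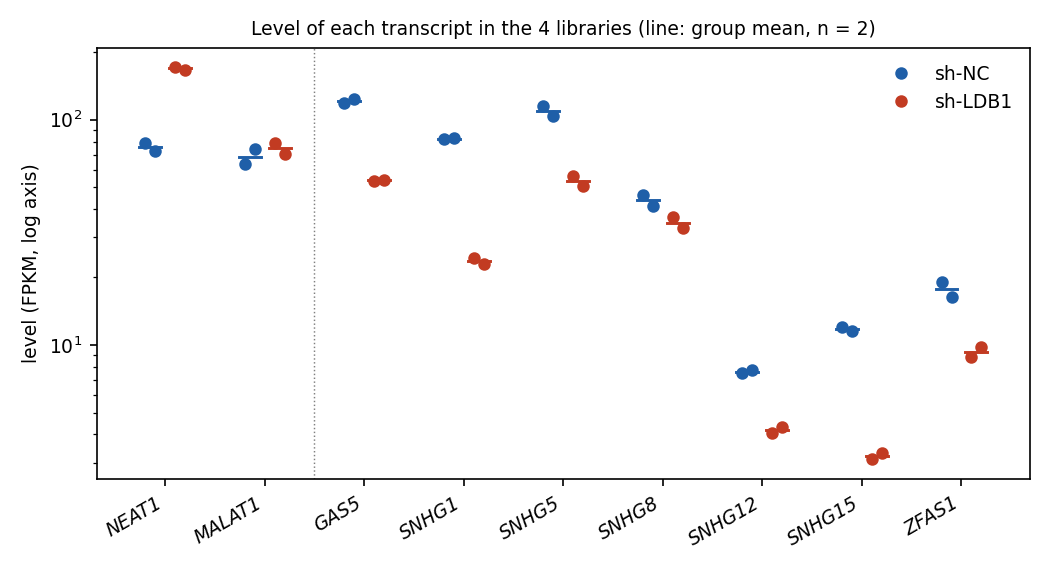
Level of the 9 transcripts in FPKM on a log axis, with 1 point for each library (sh-NC blue, sh-LDB1 red) and a line at the mean of the 2 libraries of a group. NEAT1 is higher in sh-LDB1, the points of MALAT1 overlap between groups, and the 7 snoRNA hosts to the right of the dotted line are lower in sh-LDB1, SNHG8 by the least.

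NEAT1 rose, MALAT1 did not pass the test, and all 7 snoRNA hosts fell in sh-LDB1. NEAT1 more than doubled, to 2.24 times its control level, whereas SNHG15 and SNHG1 were left with 27.1% and 28.6% of theirs. The falls of the hosts were unequal, and SNHG8 kept 79.4% of its level. At an adjusted p-value below 0.05 (limma, Benjamini-Hochberg over all 13300 genes tested), 1 of the 9 rose, where 29.9% of all genes were higher, and 7 fell, where 37.4% of all genes were lower. With a fold above 2 in addition, NEAT1 rose (9.5% of all genes) and SNHG1, SNHG15, GAS5 and SNHG5 fell (10.3% of all genes). For 8 of the 9 transcripts the values of the groups were fully apart, as they were for 84.6% of all genes, so that this count alone sets them little apart. Many genes moved in this comparison, and the median log2 fold change of all genes tested was -0.08. It was 0.06 when each library was rescaled to the same summed FPKM, 0.0045 with a median of ratios and 0.02 with the upper quartile. Relative to the median of all genes, NEAT1 was 1.23 higher on the log2 scale and 1.25 to 1.26 higher under these scalings, MALAT1 was 0.20 (0.22 to 0.23) higher, and the median of the 7 hosts was -0.95 (-0.93 to -0.92).

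NEAT1 (ENSG00000245532) lies on the plus strand of chromosome 11, from 65422774 to 65445540 (GRCh38, as are all positions here). Its level was 78.5 and 72.4 FPKM in sh-NC and 170.8 and 167.0 FPKM in sh-LDB1, so both knockdown libraries stood above both controls by far more than the replicates differed. Mean levels were 75.5 ± 4.32 and 168.9 ± 2.71 FPKM (SD, n = 2), a log2 fold change of 1.15 (SE 0.0545, 95% interval 1.01 to 1.30, adjusted p = 0.000178 by limma). Because the gene is long, it took many reads: 28929 and 24309 in the controls and 62307 and 57529 after knockdown, which is 0.179% and 0.164% of the reads against 0.417% and 0.410%. The FPKM are computed over the full 22767 bases of the gene, and one value per gene cannot separate the short from the long isoform, of which only the long one builds paraspeckles.

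MALAT1 (ENSG00000251562) lies 52.1 kb further along the same strand, from 65497640 to 65508073. Its level was 63.3 and 74.0 FPKM in sh-NC and 78.5 and 70.7 FPKM in sh-LDB1, and the groups overlapped, since the second control library stood above the second knockdown library. The log2 fold change was 0.12 (SE 0.0973, adjusted p = 0.324), with a 95% interval of -0.14 to 0.38 that lies wholly below the interval of NEAT1. Leaving out 1 library gave values from 0.01 to 0.23. With the libraries rescaled to the same summed FPKM it was 0.29 with an adjusted p-value of 0.0465 in the same test. The ratio of NEAT1 to MALAT1 within a library, which no scaling between libraries can move, was 1.24 and 0.979 in the controls and 2.18 and 2.36 after knockdown. In FPKM, the pair was thus near parity in the controls, and NEAT1 led in both knockdown libraries. With 2 libraries against 2, an exact permutation test of such a ratio cannot reach a p-value of 0.05, so none is given.

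Among the hosts, SNHG1, SNHG15 and GAS5 fell the most. SNHG1 (ENSG00000255717; chromosome 11, 62851978 to 62855953, minus strand) hosts a run of box C/D snoRNAs, which guide ribose methylation. Its level was 82.3 and 82.6 FPKM in sh-NC and 24.2 and 22.96 FPKM in sh-LDB1. The control values are almost equal, and the knockdown values lie far below them, for a log2 fold change of -1.76 (SE 0.0450, adjusted p = 8.04e-05), on 5005 and 4574 reads against 1456 and 1305.

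SNHG15 (ENSG00000232956; chromosome 7, 44983019 to 44986961, minus strand) is a short-lived host RNA and the one with the lowest level in sh-LDB1. It had 12.1 and 11.5 FPKM in sh-NC and 3.10 and 3.30 FPKM in sh-LDB1, again with the groups well apart. It fell by 1.61 on the log2 scale (SE 0.0618, adjusted p = 0.000123), and the gene had 181 and 182 reads in the knockdown libraries. GAS5 (ENSG00000234741; chromosome 1, 173858559 to 173868882, minus strand) was named for its build-up in growth-arrested cells and carries several box C/D snoRNAs. Its level was 118.6 and 123.6 FPKM in sh-NC, the highest of the 9, and 53.4 and 54.1 FPKM in sh-LDB1. GAS5 had a log2 fold change of -1.16 (SE 0.0423, adjusted p = 0.000117), which left 44.4% of the control level, and it was -0.99 with summed FPKM equal in all libraries.

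SNHG5 (ENSG00000203875; chromosome 6, 85650491 to 85678932, minus strand) carries SNORD50 snoRNAs. It had 115.5 and 104.1 FPKM in sh-NC and 56.0 and 50.7 FPKM in sh-LDB1, so the spread within each group was small against the gap between them. SNHG5 had a log2 fold change of -1.03 (SE 0.0777, adjusted p = 0.000542), and its fold stayed past 2 in 9 of the 14 alternatives. It was -0.95 without sh-NC replicate 1 and -0.96 without sh-LDB1 replicate 2. ZFAS1 (ENSG00000177410; chromosome 20, 49278178 to 49299600, plus strand) hosts the SNORD12 snoRNAs and starts opposite the gene ZNFX1. Its level was 19.1 and 16.4 FPKM in sh-NC and 8.85 and 9.78 FPKM in sh-LDB1, with a log2 fold change of -0.86 (SE 0.0937, adjusted p = 0.00159). The lower control library still stood well above the higher knockdown library.

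SNHG12 (ENSG00000197989; chromosome 1, 28578538 to 28583132, minus strand) hosts SNORD99 and box H/ACA snoRNAs, which guide pseudouridylation. It was the lowest of the 9 in sh-NC, at 7.47 and 7.76 FPKM, and had 4.08 and 4.32 FPKM in sh-LDB1. SNHG12 fell by 0.73 on the log2 scale (SE 0.0619, adjusted p = 0.000753), and 55.2% of the control level was left. SNHG8 (ENSG00000269893; chromosome 4, 118278703 to 118285316, plus strand), a host of a box H/ACA snoRNA, changed the least. It had 46.5 and 41.4 FPKM in sh-NC and 36.9 and 32.9 FPKM in sh-LDB1, and the lower control library was only a little above the higher knockdown library. The log2 fold change was -0.32 (SE 0.0860, 95% interval -0.55 to -0.09, adjusted p = 0.0268), and the call held in 8 of 14 alternatives. It was lost without sh-NC replicate 1 (-0.24, adjusted p = 0.0898) and without sh-LDB1 replicate 2 (-0.24, adjusted p = 0.121), and under all 3 other scalings.

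The unequal falls and the rise of NEAT1 changed the order of the levels in FPKM. An order between genes depends on the length used for each gene, such as 22767 bases for NEAT1 and 923 for SNHG8. It is an order of FPKM and not of RNA molecules, since isoforms of other lengths are not separated. In sh-NC the order from the top was GAS5, SNHG5, SNHG1, NEAT1, MALAT1, SNHG8, ZFAS1, SNHG15 and SNHG12. Only NEAT1 and MALAT1 had overlapping values among neighbours in that order. In sh-LDB1 the order was NEAT1, MALAT1, GAS5, SNHG5, SNHG8, SNHG1, ZFAS1, SNHG12 and SNHG15, and of the neighbours only GAS5 and SNHG5 overlapped. The ratio of NEAT1 to GAS5 within a library was 0.662 and 0.586 before and 3.20 and 3.09 after knockdown. The ratio of SNHG1 to SNHG8 turned the other way, from 1.77 and 1.99 to 0.655 and 0.697. The summed level of the 7 hosts was 401.5 and 387.4 FPKM in the controls and 186.5 and 178.1 FPKM in the knockdown libraries. The mean log2(FPKM + 1) of NEAT1 and MALAT1 exceeded that of the 7 hosts by 0.90 and 1.02 in the controls and by 2.70 and 2.62 after knockdown. On this scale, the distance between both kinds of RNA was thus larger in each knockdown library than in either control.

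**Figure D2:**
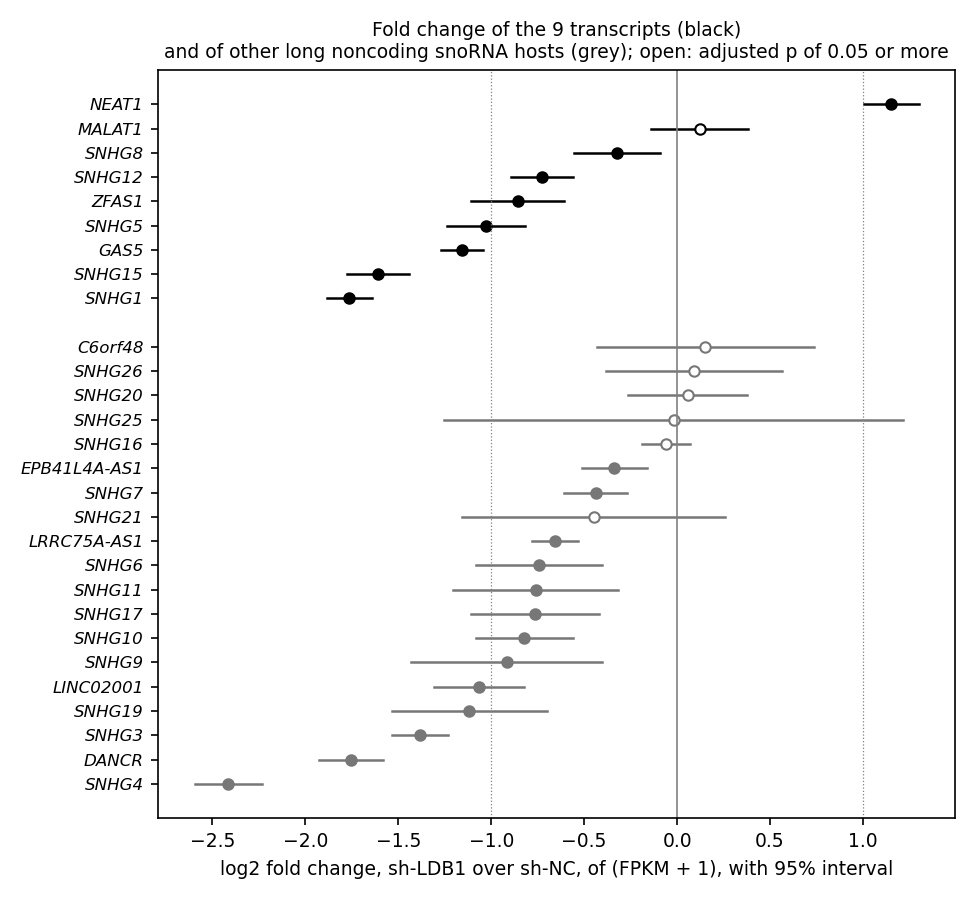
Log2 fold change of (FPKM + 1), sh-LDB1 over sh-NC, with its 95% interval, for the 9 transcripts (black) and 19 other long noncoding snoRNA hosts (grey), each in falling order; open points did not pass an adjusted p-value of 0.05 and dotted lines mark a fold of 2. NEAT1 stands alone at 1.15, and the hosts reach from 0.15 for C6orf48 to -2.41 for SNHG4.

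Other snoRNA hosts were examined next. For this and the following lists, the shares over all genes tested were 29.9% higher and 37.4% lower by limma. Past a fold of 2 they were 9.5% and 10.3%. Of 19 other long noncoding hosts tested, 0 rose and 13 fell by limma, 5 of them past a fold of 2, with a median of -0.74. The count of rises was also 0 at an unadjusted p-value below 0.05 and 0 with voom on recovered reads. The highest log2 fold change was 0.15, that of C6orf48, now named SNHG32 (adjusted p = 0.571), whose sh-NC values of 76.7 and 48.9 FPKM lay on both sides of its sh-LDB1 values of 67.0 and 69.4. It was 0.47 without sh-NC replicate 1 (adjusted p = 0.00472) and -0.17 without sh-NC replicate 2 (adjusted p = 0.0423), so a single library decides it. SNHG4 had 22.2 and 22.4 FPKM in sh-NC and 3.59 and 3.16 FPKM in sh-LDB1 (log2 fold change -2.41, adjusted p = 8.31e-05). DANCR, a host RNA best known as a brake on differentiation in skin progenitor cells, had a log2 fold change of -1.75 and SNHG3 one of -1.38. SNHG16, chosen here after its values were seen, had 18.1 and 18.96 FPKM in sh-NC and 17.5 and 17.96 FPKM in sh-LDB1, with a 95% interval of -0.19 to 0.07, and its sign turned under all 3 other scalings (0.03 to 0.10).

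Protein-coding genes that carry snoRNAs in their introns fell by less at the median. Of 18 such genes, 0 rose and 13 fell, 4 past a fold of 2, and the median was -0.44. At an unadjusted p-value below 0.05, 1 of them rose (EEF2), and 2 rose with voom on recovered reads (EEF2 and CHD8) and under each of the 3 other scalings. The smallest adjusted p-values were those of NOP56 (75.1 and 75.8 FPKM to 25.7 and 25.9), EIF4A2 (135.1 and 138.0 to 47.1 and 46.4) and DKC1 (72.6 and 70.1 to 29.0 and 27.5). NOP56 and DKC1 are also core proteins of the particles that snoRNAs form, so they count in the next list as well.

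Transcripts of the proteins that pack snoRNAs into particles (snoRNPs) fell with the hosts. Only RNA was measured, for these proteins and for those named below. Of 15 tested, 13 fell and 1 rose, and 4 fell past a fold of 2, with a median of -0.70. In the box C/D particle, the methyltransferase FBL had 196.3 and 188.7 FPKM in sh-NC and 100.4 and 99.8 FPKM in sh-LDB1 (log2 fold change -0.94, adjusted p = 0.000158). In the box H/ACA particle, the pseudouridine synthase DKC1 had a log2 fold change of -1.31. The exception was SHQ1, which escorts DKC1 during assembly and had a log2 fold change of 0.29 (adjusted p = 0.0333). It was named after its value was seen, and the call was lost under a replicate block (adjusted p = 0.0518) and without sh-NC replicate 1, sh-LDB1 replicate 1 or sh-LDB1 replicate 2 (0.106 to 0.136). Cytosolic ribosomal protein genes, many of which share the TOP start with snoRNA hosts, fell in 72 of 80 cases and rose in 0 by limma (0 at an unadjusted p-value below 0.05 and 0 with voom), with a median of -0.62, and 3 passed a fold of 2. RPL9, RPL6 and RPL24 had log2 fold changes of -1.04, -0.89 and -1.01. With no filter on low genes, 1 ribosomal protein gene rose.

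**Figure D3:**
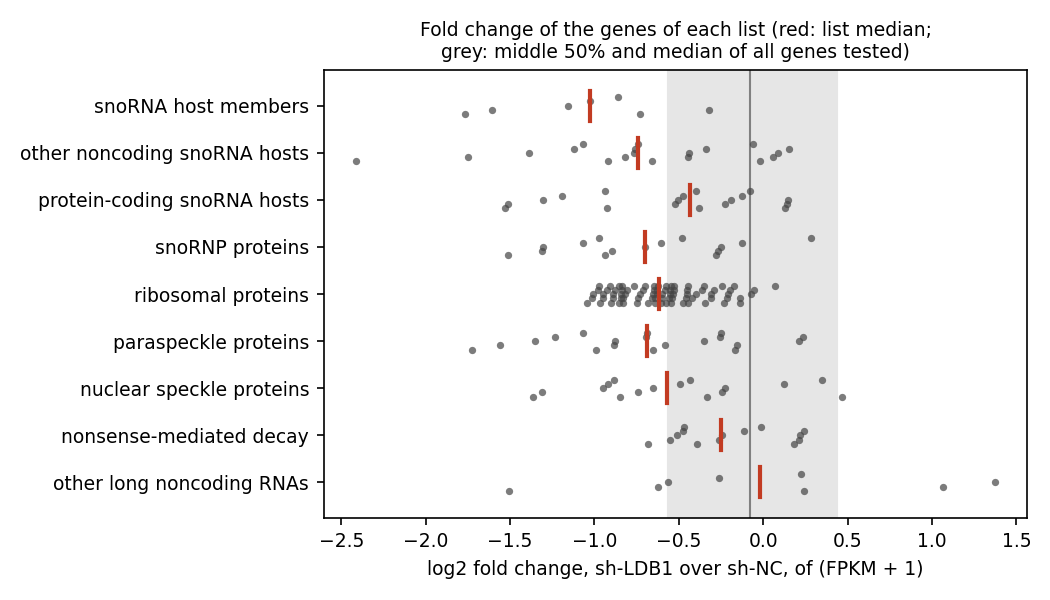
Log2 fold change of (FPKM + 1), sh-LDB1 over sh-NC, of each tested gene of 9 lists (points) with the list median (red line), over the middle 50% of all genes tested (grey band) and their median of -0.08 (grey line). The median of the 7 snoRNA hosts lies at -1.03, left of the band, and that of the 8 other long noncoding RNAs at -0.02.

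The transcripts of the listed protein partners of NEAT1 mostly fell while NEAT1 rose. Of 19 paraspeckle proteins tested, 16 fell, 1 rose and 5 fell past a fold of 2, with a median of -0.69. HNRNPA1 had 443.2 and 419.2 FPKM in sh-NC and 130.9 and 128.0 FPKM in sh-LDB1, a log2 fold change of -1.73 (adjusted p = 8.31e-05), although it has near-identical pseudogene copies that make its count uncertain. RBM14 (-1.35) and EWSR1 (-1.23) had the next smallest adjusted p-values. For the core proteins of the body, chosen here after their values were seen, the transcripts fell by unequal amounts. PSPC1 had 15.5 and 13.6 FPKM in sh-NC and 7.19 and 6.46 FPKM in sh-LDB1 (-0.99), whereas SFPQ had -0.26 (adjusted p = 0.0125) and NONO -0.16 (adjusted p = 0.0210). The calls of SFPQ and NONO were lost under all 3 other scalings, with NONO at 0.01 under summed FPKM, and without sh-LDB1 replicate 1 (adjusted p = 0.0756 and 0.137) or sh-LDB1 replicate 2 (0.0743 and 0.110), and NONO was also lost under the replicate block (0.0519). The 1 that rose was NUDT21, a cleavage factor subunit, with a log2 fold change of 0.23, also named after its value was seen. That call was lost without sh-LDB1 replicate 1 (adjusted p = 0.0823) or sh-LDB1 replicate 2 (0.0528).

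For proteins of nuclear speckles, where MALAT1 resides, the transcripts fell in 13 of 16 cases and rose in 2, with a median of -0.57. SRSF7, SRSF3 and PNN had log2 fold changes of -0.92, -0.95 and -0.89. The 2 that rose, named after their values were seen, were SON, the scaffold protein of speckles (0.47, adjusted p = 0.00180), and SF3B1, a splicing factor of the branch point (0.35, adjusted p = 0.00413). MALAT1 thus did not pass the test where the transcripts of most of the speckle proteins listed fell. Factors of nonsense-mediated decay, which clears many spliced host RNAs, showed 7 falls and 3 rises among 14. Over all genes tested, 37.4% were lower and 29.9% higher, so these counts set the list little apart. None of the 14 passed a fold of 2, and their median was -0.25. Without sh-NC replicate 1 the rises numbered 1, and without sh-LDB1 replicate 1 they numbered 0. UPF1, its central helicase, had 32.9 and 33.1 FPKM in sh-NC and 22.7 and 22.99 FPKM in sh-LDB1 (log2 fold change -0.51), UPF3A had -0.68 and SMG8 had -0.47.

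Long noncoding RNAs that host no snoRNA had no common direction among those tested. Of 15 with a row, 8 passed the filter on low values and were tested. Of these 8, 4 rose and 4 fell, and the median of -0.02 changed sign under other scalings. The rises numbered 2 without sh-NC replicate 1 or sh-LDB1 replicate 2 and 1 without sh-LDB1 replicate 1. MIR17HG, the host of the miR-17-92 microRNA cluster, had 6.28 and 7.42 FPKM in sh-NC and 1.86 and 1.65 FPKM in sh-LDB1 (log2 fold change -1.51). MIR22HG had 1.95 and 2.00 FPKM and then 4.91 and 5.53 FPKM (1.06), and GABPB1-AS1 had a log2 fold change of -0.56.

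The genes around the 9 transcripts were compared with them. FRMD8, which ends 9248 bases before NEAT1, had 23.1 and 22.8 FPKM in sh-NC and 32.3 and 32.4 FPKM in sh-LDB1 (log2 fold change 0.48, adjusted p = 0.000747). The transcribed pseudogene AP000769.1, between NEAT1 and MALAT1 and 9728 bases past the end of NEAT1, had 4.15 and 4.40 FPKM and then 13.9 and 15.1 FPKM (1.56, adjusted p = 0.000149), though reads of a pseudogene can come from its parent gene. Both genes next to NEAT1 were thus higher in sh-LDB1, with their groups apart. The nearest listed gene before MALAT1, AP000769.3, had at most 4 reads in a library.

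SNHG1 and SLC3A2 start 50 bases apart on opposite strands, and they changed in opposite directions. SLC3A2, the heavy chain of amino acid transporters, had 72.1 and 69.5 FPKM in sh-NC and 97.7 and 99.7 FPKM in sh-LDB1 (log2 fold change 0.47, adjusted p = 0.000844). The ratio of SNHG1 to SLC3A2 within a library was 1.14 and 1.19 in the controls and 0.248 and 0.230 after knockdown. On the other side of SNHG1, WDR74 had a log2 fold change of -0.20 (adjusted p = 0.315).

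Several of the other hosts share sequence with a neighbour, and without a stated use of strand the reads of overlapping genes cannot be told apart. GAS5 overlaps ZBTB37 (log2 fold change 0.32, adjusted p = 0.0472) and GAS5-AS1, which had 8 to 29 reads in a library and a log2 fold change of 0.50 (adjusted p = 0.221). Neither of these fell as GAS5 did, and the next genes outward, CENPL (-0.68) and SERPINC1 (3 to 6 reads), lie over 33 kb away. Under the replicate block and in each fit that left out a library, ZBTB37 had an adjusted p-value above 0.05. ZFAS1 overlaps ZNFX1 (-0.19, adjusted p = 0.115), and DDX27 before it had -0.10 (adjusted p = 0.453). SNHG12 overlaps TRNAU1AP by 8 bases (0.04, adjusted p = 0.597), and TAF12 beside it had -0.38. Next to SNHG5 lies SYNCRIP (-0.48), and within SNHG5 lies PKMP3, a processed pseudogene of a glycolytic enzyme with 2 and 1 reads in sh-NC and 28 and 16 reads in sh-LDB1 (1.37, adjusted p = 0.00538), whose reads may belong to its parent. CCM2, beyond SNHG15, had -0.64, and the listed genes on either side of SNHG8 were under the filter.

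The snoRNAs themselves could be followed only in 3 rows, with few reads each. SNORD99, within SNHG12, had 3 and 7 reads in the controls and 1 and 1 after knockdown. SNORD12C, within ZFAS1, had 7 and 3 reads and then 0 and 1, and SNORD12B, also within ZFAS1, had 5 and 8 and then 2 and 1. All 3 passed the test (adjusted p = 0.0248, 0.0181 and 0.0102 by limma), but each lost its call under other settings. With voom on recovered reads, SNORD99 (adjusted p = 0.110) and SNORD12B (0.0704) did not pass. With no filter on low genes, limma lost SNORD99 (adjusted p = 0.0735) and SNORD12C (0.0580). SNORD12C was also lost with a pseudocount of 0.01 (adjusted p = 0.0957 by limma). Leaving out 1 library lost the call of SNORD99 without either sh-LDB1 library. It lost that of SNORD12C without sh-NC replicate 1 or sh-LDB1 replicate 1, and that of SNORD12B without sh-LDB1 replicate 2. Mature snoRNAs lack a poly(A) tail, and reads in these rows cannot be told apart from reads of unspliced host RNA.

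The genes most like NEAT1, MALAT1 and GAS5 were found by the distance between profiles of log2(FPKM + 1), each centred on its own mean, over the 4 libraries. Among the 3 nearest to NEAT1 were TAPBPL (distance 0.0267) and RPS6KC1 (0.0407). RPS6KC1 had 8.57 and 8.08 FPKM in sh-NC and 19.6 and 19.7 FPKM in sh-LDB1. Nearest to MALAT1 were RALGAPA2 (0.0394), ZKSCAN8 (0.0419) and RMND1 (0.0437), whose groups overlapped as those of MALAT1 did. Nearest to GAS5 were PDCD2 (0.0132), ITPRIP (0.0186) and HBS1L (0.0240), and PDCD2 had 30.2 and 31.7 FPKM and then 13.3 and 13.5 FPKM. With 4 libraries in 2 groups such a profile holds little more than the fold change and the replicate difference.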

How the data were processed

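RNA-seq was performed on 4 libraries of cells labelled NB4, 2 of the control vector sh-NC and 2 of the LDB1 shRNA vector sh-LDB1, grouped by their labels. Sequencing libraries were built from total RNA with a TruSeq RNA kit, per the labels. The reads were mapped by the authors with HISAT, and the submitters' processing notes name HISAT2 2.0.5 and the build hg38. The counting tool, the annotation and the use of strand are not given in the sources used here. The authors deposited FPKM values, fragments per kilobase of gene scaled to depth, with replicates kept apart, and called changed genes with DESeq2. Their calls were not used here.

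The 28412 genes of the table were matched to GENCODE release 44 by gene ID (28193 found). Whole reads were recovered from the steps between low values (99.46% of the found genes gave whole reads in all libraries at 1 length, within 0.002 reads). The totals that the deposited FPKM imply were 1.00, 0.996, 1.07 and 1.08 times the recovered reads, in the order sh-NC replicates 1 and 2 and sh-LDB1 replicates 1 and 2, so the deposited values carry a scaling between libraries.

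The 13300 genes that averaged 1 FPKM or more were compared with limma 3.58.1 in R 4.3.3 on log2(FPKM + 1), with a trended prior, a two-sided test and Benjamini-Hochberg adjustment over all of them. Fold changes of genes near 1 FPKM are understated on this scale. The fold rule (above 2 or below 0.5 on this scale) is that of the study. The fit was also run on simulated reads in which far fewer genes changed than here. That run does not measure how well the p-values hold for these data. Other steps ran in Python 3.11.15 (pandas 2.3.3, numpy 2.4.6). Alternatives were other pseudocounts, filters and scalings, a prior without a trend, a replicate block, voom on the recovered reads, other thresholds, and leaving out each library.

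The 9 transcripts and the gene lists were chosen with earlier results of these data known. Genes named besides the 9 transcripts and LDB1 were the 3 of each list with the smallest adjusted p-value, the neighbours and overlapping genes of the 9 transcripts, and the 3 genes whose centred profile over the 4 libraries was nearest to NEAT1, MALAT1 and GAS5. Genes named outside this rule, C6orf48, EEF2, CHD8, SNHG16, SHQ1, PSPC1, SFPQ, NONO, NUDT21, SON and SF3B1, were chosen after their values were seen. So were KCNQ1OT1, MIAT, FTX and JPX. Some genes that the rule names are not reported here. The labels do not say whether replicates are separate cultures, so p-values measure only the spread between these libraries, which may be technical.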

Additional observations from a re-analysis of the deposited data

How the results depend on the processing

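NEAT1 kept its direction, its adjusted p-value below 0.05 and its fold above 2 under each of the 14 alternatives run for single genes (log2 fold change 1.10 to 1.32), as did the falls of SNHG1 (-1.81 to -1.60), SNHG15 (-1.88 to -1.46) and LDB1 (-3.69 to -3.40). GAS5 (-1.19 to -0.99), SNHG5 (-1.10 to -0.86), ZFAS1 (-0.96 to -0.70) and SNHG12 (-0.86 to -0.58) kept an adjusted p-value below 0.05 under all 14. SNHG8 did not. Its log2 fold change was -0.32 without a filter on low genes (adjusted p = 0.0676), -0.16 with each library rescaled to the same summed FPKM, -0.23 with a median of ratios and -0.21 with the upper quartile, and it ranged from -0.41 to -0.24 when each library was left out, with adjusted p-values of 0.0898 without sh-NC replicate 1 and 0.121 without sh-LDB1 replicate 2. MALAT1 passed under summed FPKM only (0.29, adjusted p = 0.0465). The cause of these changes was not tested beyond the scaling itself.

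Rescaling moved the median of all genes from -0.08 to 0.06 (summed FPKM), 0.0045 (median of ratios) and 0.02 (upper quartile). In the same order, the median of NEAT1 and MALAT1 moved from 0.64 to 0.81, 0.74 and 0.75, and that of the 7 snoRNA hosts from -1.03 to -0.86, -0.93 and -0.91. The median of the 8 other long noncoding RNAs, -0.02, changed sign under these scalings (0.14, 0.074 and 0.089), with no filter (0.019), with a filter at 5 FPKM (0.22) and without sh-NC replicate 2 (-0.072 to 0.0050 over the libraries left out). SNHG16 turned from -0.06 to 0.10, 0.035 and 0.050 under the 3 scalings and NONO from -0.16 to 0.014 under summed FPKM, and C6orf48 from 0.15 to -0.17 (range -0.17 to 0.47) when a library was left out.

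Over all genes, 1264 were higher and 1371 lower past the threshold with the fold rule. The counts were 1602 and 1001 under summed FPKM, 1465 and 1145 under a median of ratios, and 1489 and 1114 under the upper quartile. With a filter at 5 FPKM 710 were higher, with no fold rule 3983 were higher and 4978 lower, and with limma's treat against a fold of 2, 568 were higher and 581 lower.

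The labels number the replicates alike in both groups. Over genes, the differences between replicates 1 and 2 of the groups correlated at 0.0196. Such a low value over all genes does not settle whether libraries of the same number were paired or shared a batch. With the replicate block 1274 genes were higher and 1386 lower, and none of the 9 transcripts changed its call. NEAT1 stood at 1.15 and SNHG8 at -0.32 in that fit. Among the genes outside the 9, the rise of ZBTB37 lost its adjusted p-value below 0.05 under the block (0.0888), and so did the rise of SHQ1 (0.0518) and the fall of NONO (0.0519).

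The 4 libraries of 14021141 to 16182989 recovered reads gave each of the 9 transcripts at least 181 reads. FPKM values per gene do not separate isoforms or, with strand use unstated, overlapping genes.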
